A study of Mus musculus with 6 samples.

Results

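Pilra, Pilrb1, Pilrb2, Pirb, Lilrb4a, Lilr4b, Sirpa, Siglece, Cd300a and Lst1 are 10 mouse genes for surface receptors of myeloid cells, most of which belong to families of paired inhibitory and activating receptors. They were taken by gene symbol, 10 of the 54532 genes listed, and all 10 passed a filter of at least 1 FPKM on average (reads or fragments counted in a gene, per kilobase of it and relative to library size). They were chosen by readout as well as by family: Pilrb2 had been among the genes of lowest p when the 2 conditions of these samples were compared. The differences given here between the conditions are therefore a description of chosen genes.

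The study measured RNA from cultured C57BL/6 macrophages, which its sample labels call bone-marrow-derived and its title monocyte-derived. The siCXCR4 group received a small interfering RNA (siRNA) against Cxcr4, the receptor for the chemokine CXCL12, and the siNC group received a negative-control siRNA. Both groups carried a transfected siRNA and both had received lipopolysaccharide (LPS), the bacterial cell-wall component sensed by TLR4, at 100 ng/ml for 12 hours, so no untransfected or LPS-free cells were compared. The labels name 3 samples per group, but siNC replicate 3 repeated the reads of siNC replicate 2 in every gene. The pair thus differed by less than sampling noise, and counting it as 1 sample left 3 siCXCR4 and 2 siNC libraries.

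Paired receptors are neighbouring, closely similar genes whose products bind the same or related ligands and signal in opposite directions. The inhibitory member carries an immunoreceptor tyrosine-based inhibitory motif (ITIM) in its cytoplasmic tail. Src-family kinases phosphorylate the tyrosine of this motif, which then recruits the phosphatases SHP-1 (Ptpn6), SHP-2 (Ptpn11) or SHIP-1 (Inpp5d). The activating member has a short tail and pairs through a charged residue in the membrane with the adaptors DAP12 (Tyrobp) or the Fc receptor gamma chain (Fcer1g), which recruit the kinase Syk. In macrophages the inhibitory members restrain phagocytosis, cytokine release and integrin signalling.

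The coding sequences were searched for the ITIM, because the group's name calls all 10 genes inhibitory receptors. The motif has 6 codons: isoleucine, leucine, valine or serine, then any residue, tyrosine, any pair of residues, and isoleucine, leucine or valine. It was looked for downstream of the most hydrophobic stretch of 19 codons, in 1 GENCODE transcript per gene. That stretch was sought after the first 40 codons, except in Lst1, which has only 93 codons and was searched from its start. The coding sequence of 6 genes held the motif. There were 3 matches in Pirb and in Sirpa, 2 in Lilrb4a and in Cd300a, and 1 in Pilra and in Siglece. In the other 4 genes there was no match. Only 9 codons followed the hydrophobic stretch in Pilrb1 and in Pilrb2, against 85 in Pilra, while 46 followed it in Lilr4b and 55 in Lst1. The matching codons of the GENCODE M21 transcripts are shown 5′ to 3′ with the tyrosine codon in capitals, since they separate Pilra from Pilrb1 and Pilrb2, and Lilrb4a from Lilr4b. Activating partners outside the 10 genes were not searched.
Pilra: atcgtgTATgcttccatc
Pirb, match 1: agcctaTATgcttcagtg
Pirb, match 2: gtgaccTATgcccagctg
Pirb, match 3: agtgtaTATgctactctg
Lilrb4a, match 1: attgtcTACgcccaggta
Lilrb4a, match 2: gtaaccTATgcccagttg
Sirpa, match 1: atcacaTACgcagacctg
Sirpa, match 2: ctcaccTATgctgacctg
Sirpa, match 3: tcagagTATgctagtgtc
Siglece: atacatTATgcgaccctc
Cd300a, match 1: gtggaaTATagcacattg
Cd300a, match 2: cttcacTATtcatccgtg
Other transcripts of Lst1 were not searched, and a motif of these codons is a match of letters, not a measured phosphorylation site.

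The 3 Pilr genes lie in a row on the minus strand of chromosome 5. In GRCm38 coordinates Pilra (ENSMUSG00000046245) spans 137821952 to 137836281, Pilrb1 (ENSMUSG00000066684) 137852147 to 137858106 and Pilrb2 (ENSMUSG00000066682) 137865827 to 137871815. Their start regions are near copies of each other. RefSeq promoter windows, from 250 bases before to 50 bases after the annotated start, were available for 7 of the 10 genes. In GRCm38.p6 the windows of Pilrb1 (chr5:137858000-137858299) and Pilrb2 (chr5:137871709-137872008) were identical at 97.3% of their 300 bases and differed at 8, with no gap. The window of Pilra (chr5:137836229-137836528) was offset by 54 bases, and in the 246 bases that then overlapped it differed from Pilrb2 at 2. The 3 windows are shown on the minus strand, 5′ to 3′. Capitals mark, in Pilrb1 and Pilrb2, the bases at which these differ from each other, and in Pilra the bases that differ from Pilrb2.
Pilra: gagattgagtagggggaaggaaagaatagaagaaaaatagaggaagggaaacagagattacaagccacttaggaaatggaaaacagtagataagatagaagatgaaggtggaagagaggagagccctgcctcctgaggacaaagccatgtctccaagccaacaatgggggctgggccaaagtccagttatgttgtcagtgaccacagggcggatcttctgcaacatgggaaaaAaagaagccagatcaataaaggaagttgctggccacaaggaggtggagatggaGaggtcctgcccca
Pilrb1: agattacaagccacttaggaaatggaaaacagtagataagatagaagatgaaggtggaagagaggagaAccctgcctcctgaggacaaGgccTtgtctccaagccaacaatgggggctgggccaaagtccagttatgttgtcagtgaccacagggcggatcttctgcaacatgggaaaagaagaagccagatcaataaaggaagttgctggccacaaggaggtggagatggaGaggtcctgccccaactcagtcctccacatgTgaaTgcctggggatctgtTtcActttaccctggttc
Pilrb2: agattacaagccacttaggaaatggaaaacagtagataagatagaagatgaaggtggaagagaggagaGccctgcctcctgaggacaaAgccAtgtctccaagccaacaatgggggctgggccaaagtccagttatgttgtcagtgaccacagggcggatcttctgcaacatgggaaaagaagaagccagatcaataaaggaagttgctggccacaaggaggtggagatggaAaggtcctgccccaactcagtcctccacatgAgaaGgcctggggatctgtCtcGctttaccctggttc
The motif GAGGAA, the core recognised by the myeloid factor PU.1, was counted on both strands (TTCCTC on the other). It occurred in the windows of 4 of these 7 genes, with 3 matches in Pirb and in Siglece and 1 in Pilra and in Cd300a, and in 28.3% of 32851 RefSeq promoter windows. Pilrb1, Pilrb2 and Lilr4b had no match in their windows. The match in Pilra lay within the 54 bases that the windows of Pilrb1 and Pilrb2 do not reach. The matching stretch of Pilrb1 and Pilrb2 was therefore not searched, and the windows do not show that they lack the motif there.

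Reads in genes ran from 18890751 to 21780840 in the siCXCR4 libraries, against 19292520 and 21443370 in the siNC libraries. The labels do not tie replicates to separate cultures or mice. The p-values therefore reflect spread among the samples at hand, and that spread could be technical. Over all genes, limma called 0 of 9943 tested (0.0%) at an adjusted p under 0.05, with 577 genes higher and 352 lower in siCXCR4 at an unadjusted p under 0.05. On whole reads worked back from the FPKM, edgeR called 17 of 12794 (0.133%), with 9.73% at an unadjusted p under 0.05, and DESeq2 28 of 8397 with an adjusted p (0.333%). With 1 library left out, edgeR called 0 (without siCXCR4 replicate 1) to 312 (without siCXCR4 replicate 2), with 3 without siCXCR4 replicate 3 and 5 without siNC replicate 1. Cxcr4 itself was at 31.1, 36.2 and 32.7 FPKM in siCXCR4, against 41.3 and 42.1 FPKM in siNC, with an adjusted p of 0.457 by limma and 0.0637 by edgeR. All 7 macrophage markers were present, and their summed level was 3774 to 4083 FPKM in siCXCR4 and 3891 to 4041 FPKM in siNC. The summed level of 4 dendritic cell markers came almost wholly from Itgax, which macrophages share. Summed levels of B cell, NK cell, mast cell and fibroblast markers were under 1 FPKM in every library, with Klrb1c the highest NK cell marker, at 0.335 to 0.732 FPKM in siCXCR4 and 0.597 to 0.617 FPKM in siNC. Among T cell markers, Cd3e, Cd3d and Cd8a were at or near 0 and Cd4 was at 1.31 to 1.75 FPKM in siCXCR4, against 1.11 to 1.52 FPKM in siNC. The summed level of 5 neutrophil markers was 10.8 to 13.4 FPKM in siCXCR4, against 15.6 to 18.3 FPKM in siNC. Nearly all of that was S100a8, while Retnlg was listed at 0 and Mpo, Elane and Ly6g stayed under 0.2 FPKM in every library.

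Sirpa (ENSMUSG00000037902, chromosome 2, 129592835 to 129632228, plus strand), the receptor for the "don't eat me" protein CD47, had the highest level of the 10 genes in each library. It was at 561, 554 and 559 FPKM in siCXCR4, against 564 and 531 FPKM in siNC, and took place 55 by level among the 9943 genes tested. Next came Lst1, Pirb and Lilr4b, which exchanged places between libraries, with a ratio of Lst1 to Pirb between 0.92 and 1.45. Pilra held place 5 and Lilrb4a place 6 in every library. Siglece stood below Cd300a in all 3 siCXCR4 libraries and above it in both siNC libraries. Pilrb1 and Pilrb2 were lowest throughout. Neighbours in this order whose ranges overlapped were Lst1 with Pirb, Pirb with Lilr4b, and Siglece with Cd300a. The FPKM rest on the gene lengths given with them, 5439 bases for Lilr4b and 5227 for Lilrb4a. The transcripts searched for the ITIM had 1836 bases for Lilr4b and 1381 for Lilrb4a. The order of genes by level therefore depends on the length used, while comparisons of the same gene between libraries do not.

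**Figure D1:**
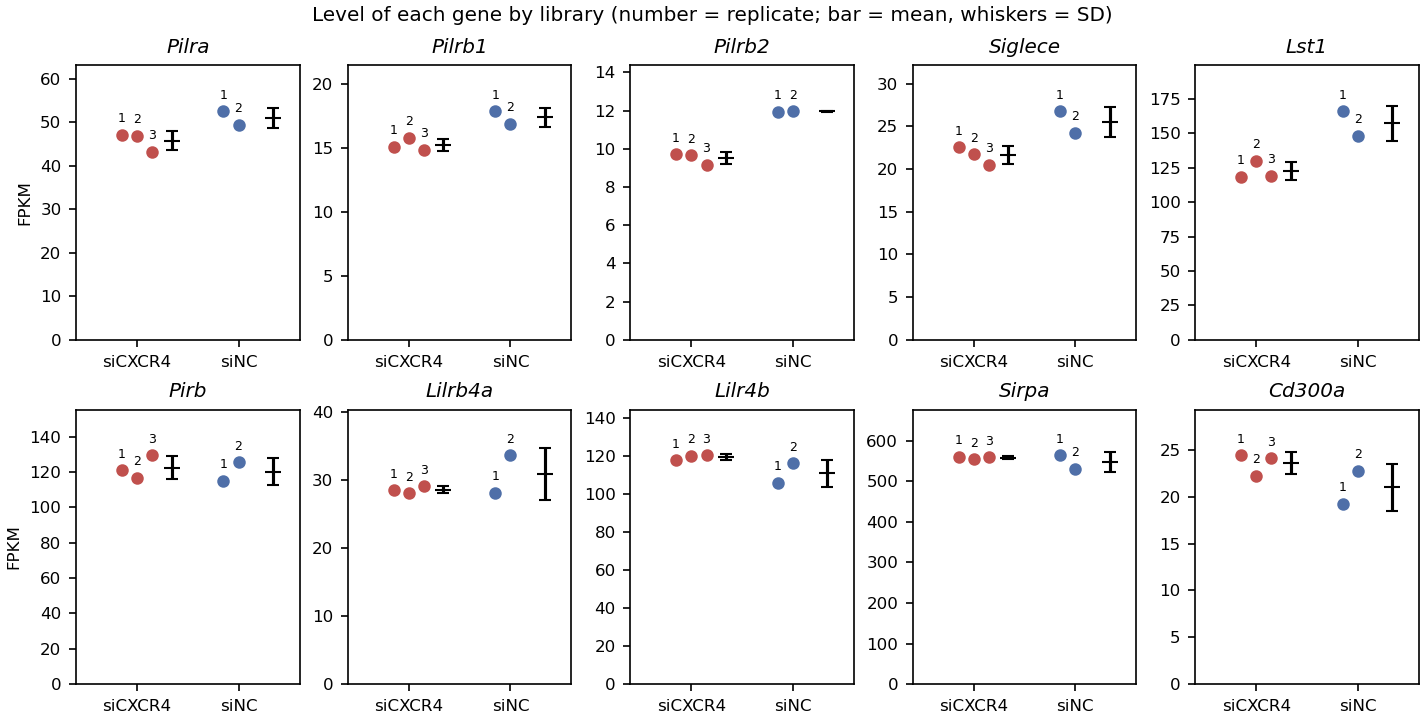
FPKM of each of the 10 genes by library, with siCXCR4 (3 libraries, red) to the left of siNC (2 libraries, blue), each axis starting at 0; digits give the replicate, the horizontal bar the mean and the whiskers the SD. In the upper row every siCXCR4 point lies below both siNC points, and in the lower row only Lilr4b has groups that do not overlap, with siCXCR4 above siNC.

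Across the conditions the groups did not overlap in 6 of the 10 genes. The siCXCR4 values were all below the siNC values in 5 of them, Pilra, Pilrb1, Pilrb2, Siglece and Lst1, where 9.92% of all genes tested had that pattern. They were all above in 1, Lilr4b, where 17.9% of all genes tested did. The same 5 genes had an unadjusted p under 0.05 in the lower direction, which 3.54% of all genes had, and none of the 10 had one in the higher direction (5.8% of all). As the genes were proposed from this contrast, nothing is read from these counts. No member was called by limma. Lst1 was the 1 member called by edgeR, which called 0.0469% of all genes in the lower direction, and by DESeq2. Without its robust estimate edgeR called 0.0234% of all genes and no member. Log2 fold changes are given on the log2(FPKM + 1) scale as siCXCR4 minus siNC. Their median was -0.13 over the 10 genes and 0.015 over all genes tested, and by edgeR -0.15 and -0.006. In bulk RNA, fewer cells of a type and less RNA per cell cannot be told apart.

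Pilra encodes the inhibitory member of the PILR pair, which binds sialylated O-linked glycans on proteins such as PIANP and NPDC1. Its level was 47.2, 46.9 and 43.3 FPKM in siCXCR4, against 52.6 and 49.4 FPKM in siNC. The highest siCXCR4 library lay just under the lower siNC library. The log2 fold change was -0.15 (SE 0.060, 95% interval -0.30 to -0.01), and the adjusted p was 0.525 by limma and 0.348 by edgeR.

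Pilrb1 and Pilrb2 encode activating members, which signal through DAP12. Pilrb1 was at 15.1, 15.8 and 14.9 FPKM in siCXCR4, against 17.9 and 16.9 FPKM in siNC. Its log2 fold change was -0.18 (SE 0.0544), with an adjusted p of 0.494 by limma and 0.374 by edgeR. Pilrb2 was at 9.71, 9.65 and 9.15 FPKM in siCXCR4, against 11.9 and 12.0 FPKM in siNC, on 343 to 515 reads per library. Its SD was 0.307 FPKM in siCXCR4 (n = 3) and 0.032 FPKM in siNC (n = 2), and the groups did not overlap. Counting error alone gives a 95% half-width of 10.6% at its lowest count, more than the spread within either group, so the small SD does not measure the precision of Pilrb2. The log2 fold change of Pilrb2 was -0.30 (SE 0.0519, 95% interval -0.43 to -0.18), place 16 among all genes by p, with an adjusted p of 0.389 by limma, 0.142 by edgeR and 0.315 by DESeq2. All 3 Pilr genes were thus lower in siCXCR4 in each library, and none passed the test over all genes.

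A ratio of FPKM within a library does not depend on scaling between libraries. The ratio of Pilra to Pilrb2 was 4.86, 4.86 and 4.73 in siCXCR4, against 4.41 and 4.13 in siNC. The groups did not overlap, and the log2 ratio was higher in siCXCR4 by 0.15 on (FPKM + 1) and by 0.175 on reads per kilobase. Pilrb2 was chosen for its low p in this same contrast. How often ratios of other gene pairs separate the groups was not computed, so nothing is read from the separation. The ratio of Pilra to Pilrb1 was 3.13, 2.97 and 2.91 in siCXCR4, against 2.94 and 2.93 in siNC, and the groups overlapped. Of the reads counted for Pilrb1 and Pilrb2 together, Pilrb2 took 414 of 1057, 366 of 965 and 343 of 900 in siCXCR4, against 515 of 1287 and 462 of 1113 in siNC. All 3 siCXCR4 shares lay below both siNC shares. The highest siCXCR4 share was 39.2% (exact 95% binomial interval 36.2% to 42.2%). The lower siNC share, 515 of 1287 in replicate 1, had an interval of 37.3% to 42.8%, which contains 39.2%. The higher siNC share was 41.5% (38.6% to 44.5%). The difference in this share was not tested. How often shares of other gene pairs separate the groups was not computed either, so nothing is read from this order.

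The values of Pilrb1 and Pilrb2 depend on how reads that match both genes were counted, which neither labels nor headers state. Their coding sequences were identical at 93.5% of bases, with 44 mismatches. Of the 50-base windows of the Pilrb2 transcript, 29.9% were also found in a transcript of another gene (Pilrb1 or Pilra), and 3.3% of its 100-base windows were. For Pilrb1 the shares were 31.2% and 4.6%, and for Pilra 7.3% and 0.9%. Pilrb1 also overlaps the antisense gene Gm36551, with 8.4 reads on average against 644 for Pilrb1, and Pilra overlaps Zcwpw1 on the other strand, with 46.4 reads against 3029. Since the strand setting is not given either, reads of such overlapping pairs cannot be told apart.

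**Figure D2:**
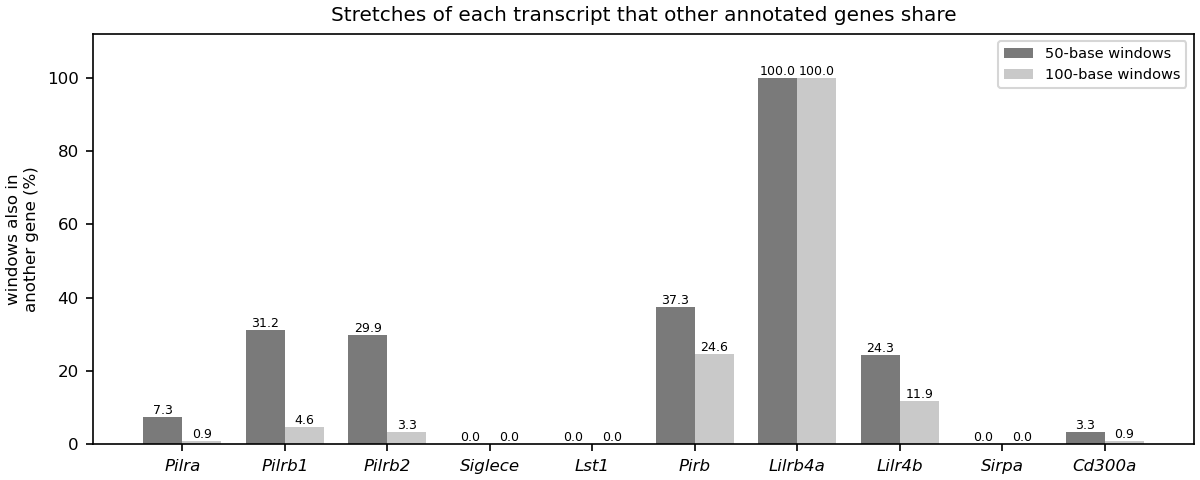
Share of the 50-base (dark) and 100-base (light) windows of each gene's transcript that also occur in a transcript of another annotated gene, in percent. The share reaches 100% in Lilrb4a and lies between 24.3% and 37.3% for 50-base windows in Pirb, Pilrb1, Pilrb2 and Lilr4b, while Siglece, Lst1 and Sirpa share no window.

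Siglece (ENSMUSG00000030474, chromosome 7, 43651070 to 43660161, minus strand) encodes Siglec-E, an inhibitory lectin for sialic acid on neutrophils and macrophages. It was at 22.6, 21.8 and 20.5 FPKM in siCXCR4, against 26.8 and 24.3 FPKM in siNC, and no window of its transcript was shared with another gene. Its log2 fold change was -0.23 (SE 0.0654, 95% interval -0.39 to -0.07), and the adjusted p was 0.488 by limma and 0.207 by edgeR. S100a8, a calcium-binding protein that neutrophils hold in large amounts, was also lower, at 10.8, 13.3 and 10.7 FPKM in siCXCR4, against 18.2 and 15.3 FPKM in siNC. The defining neutrophil markers Retnlg, Mpo, Elane and Ly6g were at or near 0 in both groups.

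Lst1 (ENSMUSG00000073412, chromosome 17, 35185095 to 35188439, minus strand) encodes a small transmembrane protein of leukocytes, described in human cells as an inhibitor of lymphocyte proliferation, from the class III region of the major histocompatibility complex. It was at 119, 130 and 119 FPKM in siCXCR4, against 166 and 148 FPKM in siNC. Its SD was 6.49 FPKM in siCXCR4 (n = 3) and 12.7 FPKM in siNC (n = 2). The log2 fold change was -0.35 (SE 0.0716, 95% interval -0.53 to -0.18), the largest fall of the 10 genes. The adjusted p was 0.438 by limma, 0.0412 by edgeR and 0.0282 by DESeq2, and 0.0809 by edgeR without its robust estimate. Leaving out siCXCR4 replicates 1 or 3 or siNC replicate 1 ended the edgeR call of Lst1, with an adjusted p of 0.31, 0.26 and 0.449 in that order. Leaving out siCXCR4 replicate 2 (0.00109) or siNC replicate 2 (0.0296) did not. Over all settings run the adjusted p of Lst1 ran from 0.00109 to 0.924. S100a8 was lower in the same libraries, as given for Siglece.

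The neighbourhood of Lst1 held genes on both sides of 0. Of 16 other genes of at least 1 FPKM that start within 100 kb of it, 9 had a log2 fold change below 0, and their median was -0.03. Tnf, the gene of the inflammatory cytokine, starts 13568 bases away and was at 649, 747 and 604 FPKM in siCXCR4, against 727 and 659 FPKM in siNC, with groups that overlapped. Around the 3 Pilr genes, 1 of 4 other genes was below 0, with a median of 0.08.

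Pirb (ENSMUSG00000058818, chromosome 7, 3711409 to 3720391, minus strand) encodes an inhibitory receptor for MHC class I. It was at 121, 117 and 129 FPKM in siCXCR4, against 115 and 125 FPKM in siNC. The groups overlapped, and the log2 fold change was 0.03 (SE 0.0665, 95% interval -0.13 to 0.18). Of its 50-base windows 37.3% occurred in another gene, among them the activating Pira2. The activating Pira2, Lilra5 and Lilra6 together were low, at 2.57, 2.77 and 2.34 FPKM in siCXCR4, against 2.79 and 2.24 FPKM in siNC.

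Lilrb4a and Lilr4b, also known as gp49B and gp49A, lie side by side on the plus strand of chromosome 10, at 51490956 to 51496611 (ENSMUSG00000112148) and 51480632 to 51486703 (ENSMUSG00000112023). Lilrb4a, the ITIM-bearing member, was at 28.5, 28.1 and 29.1 FPKM in siCXCR4, against 28.1 and 33.6 FPKM in siNC. One siNC library lay among the siCXCR4 values and the other above them. Lilr4b was at 118, 120 and 120 FPKM in siCXCR4, against 106 and 116 FPKM in siNC, so the siCXCR4 values were all above. The log2 fold change was -0.10 (SE 0.0771) in Lilrb4a and 0.11 (SE 0.0562) in Lilr4b, with adjusted p-values of 0.687 and 0.598 by limma. Without siNC replicate 1 it was -0.229 in Lilrb4a and 0.042 in Lilr4b, and without siNC replicate 2 it was 0.02 in Lilrb4a and 0.171 in Lilr4b.

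The FPKM ratio of Lilrb4a to Lilr4b was 0.24, 0.23 and 0.24 in siCXCR4, against 0.27 and 0.29 in siNC. The groups did not overlap, and the log2 ratio was lower in siCXCR4 (siCXCR4 minus siNC -0.21). How often ratios of other genes separate the groups was not computed. The coding sequences of the pair were 86.5% identical. Every window of the Lilrb4a transcript also occurs in a transcript of Lilr4b or of Gm49339, an annotated gene on the same strand that overlaps both members. Gm49339 had 3.0 reads on average, against 3142 for Lilrb4a. How a read in Lilrb4a and Gm49339 was assigned is not stated, and levels of this pair are uncertain to that extent.

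**Figure D3:**
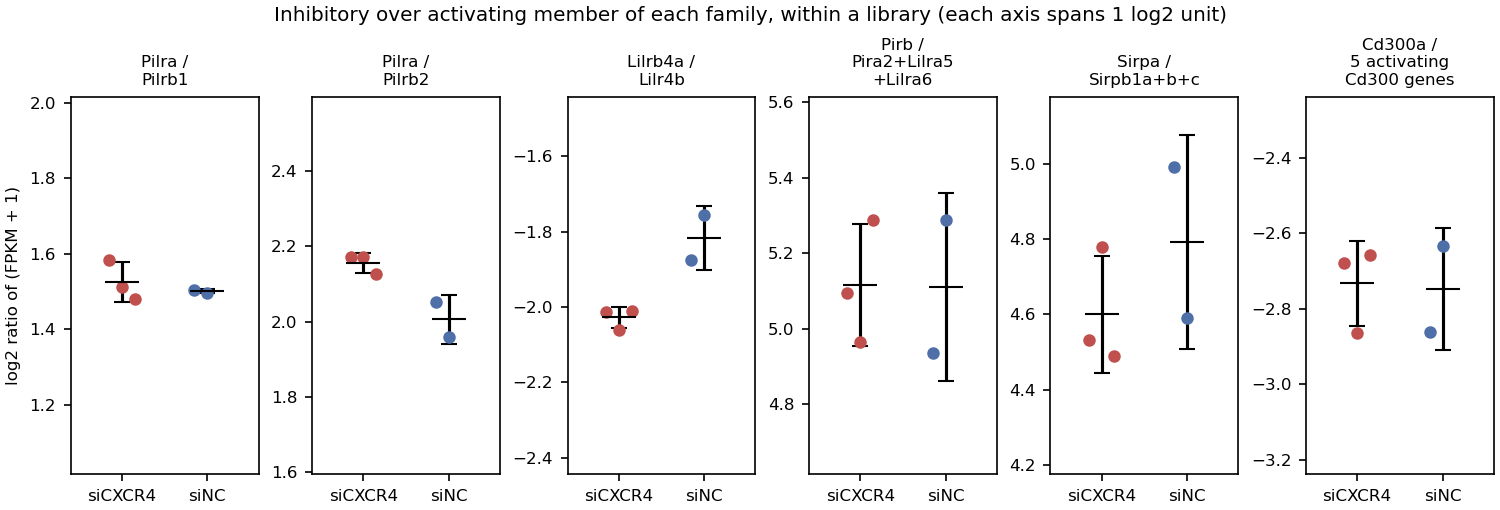
Log2 ratio of (FPKM + 1) of the ITIM-bearing member over its partner or partners of each family within each library. The siCXCR4 libraries (3, red) are left of the siNC libraries (2, blue), with the mean as a bar and the SD as whiskers. Each axis spans 1 log2 unit around its own centre. Lilr4b is set here as the partner without a motif match, and whether it is activating was not examined. The groups separate for Pilra over Pilrb2 (siCXCR4 higher by 0.15) and for Lilrb4a over Lilr4b (siCXCR4 minus siNC -0.21) and overlap in the other 4 ratios. Pilrb2 was chosen from this contrast, and the share of other gene pairs that separate was not computed, so nothing is read from the separation.

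In Sirpa the log2 fold change was 0.03 (SE 0.0536, 95% interval -0.10 to 0.16), and both siNC libraries bracketed the siCXCR4 libraries. The activating genes Sirpb1a, Sirpb1b and Sirpb1c together were at 23.3, 19.3 and 23.9 FPKM in siCXCR4, against 16.8 and 21.1 FPKM in siNC. The log2 ratio of Sirpa to their sum differed by -0.19, with groups that overlapped. It differed by 0.009 without siNC replicate 1 and by -0.392 without siNC replicate 2. Cd47, the ligand of Sirpa, was at 70.1, 67.2 and 68.3 FPKM in siCXCR4, against 64.5 and 65.7 FPKM in siNC, with an adjusted p of 0.659 by limma.

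Cd300a (ENSMUSG00000034652, chromosome 11, 114890041 to 114904654, plus strand) encodes an inhibitory receptor for the phospholipids phosphatidylserine and phosphatidylethanolamine. It was at 24.4, 22.2 and 24.1 FPKM in siCXCR4, against 19.3 and 22.8 FPKM in siNC, and 1 siCXCR4 library lay below the higher siNC library. The log2 fold change was 0.16 (SE 0.0812, 95% interval -0.03 to 0.36), and limma gave an adjusted p of 0.577. The fold change was 0.046 without siNC replicate 1 and 0.279 without siNC replicate 2. Its neighbours Cd300ld and Cd300lb, activating genes of the same family, were above siNC in all 3 siCXCR4 libraries, a pattern of 17.9% of all genes tested. The ratio of Cd300a to 5 activating Cd300 genes together differed by 0.02 on the log2 scale, with groups that overlapped, and by -0.1 to 0.13 with 1 library left out.

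**Figure D4:**
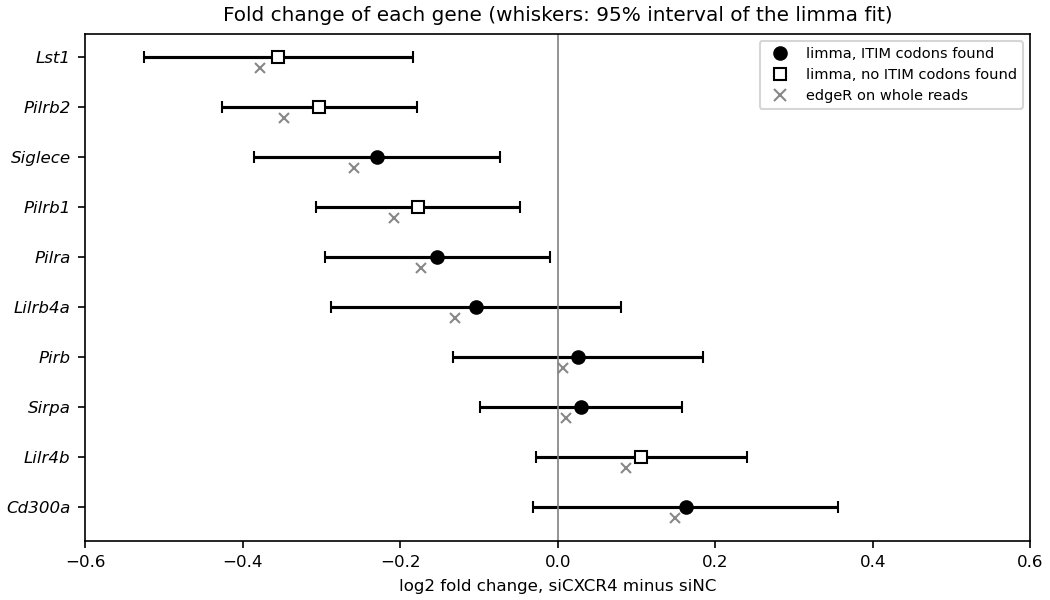
Log2 fold change of each gene, siCXCR4 minus siNC, with the 95% interval of the limma fit as whiskers; filled circles mark genes with ITIM codons, open squares genes without a match, and crosses the edgeR estimate on whole reads. Lst1 (-0.35) and Pilrb2 (-0.30) are lowest and Cd300a (0.16) is highest, and the intervals of the 5 lowest genes lie below 0.

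Genes lower in siCXCR4 were found both with and without the motif. Of the 6 genes with the motif, 2 had all siCXCR4 values below siNC (Pilra and Siglece), a pattern of 9.92% of all genes, and 4 overlapped, with a median log2 fold change of -0.04 and a range of -0.23 to 0.16. Of the 4 without it, 3 were below (Pilrb1, Pilrb2 and Lst1) and 1 above (Lilr4b), a pattern of 17.9% of all genes, with a median of -0.24 and a range of -0.35 to 0.11. The medians are values of 6 and 4 chosen genes and were not compared by a test.

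The rest of the pathway was described by gene lists, in which 0 genes were called by limma, edgeR or DESeq2. Over all genes tested, 43.6% had a log2 fold change below 0, and at an unadjusted p under 0.05 there were 5.8% higher and 3.54% lower in siCXCR4. Of 12 activating partners tested, 9 were above 0 and 3 below, with a median log2 fold change of 0.10 against 0.015 for all genes. Cd300c2 was at 77.5, 80.9 and 74.3 FPKM in siCXCR4, against 74.1 and 69.4 FPKM in siNC. Cd300ld was at 52.2, 56.1 and 52.1 FPKM in siCXCR4, against 46.1 and 47.5 FPKM in siNC. Trem2, the lipid receptor that signals through DAP12, was at 49.9, 49.1 and 43.7 FPKM in siCXCR4, against 45.4 and 44.2 FPKM in siNC. The first pair of these genes was higher in each siCXCR4 library, and Trem2 overlapped. All siCXCR4 values were above siNC in 4 of the 12 partners (17.9% of all genes tested) and below in 2 (9.92%). At an unadjusted p under 0.05 there were 3 activating partners higher and 1 lower in siCXCR4.

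Among 7 adaptors and downstream kinases of activating receptors, 5 were below 0 and 2 above, with a median of -0.02. Fcer1g averaged 902 FPKM in siCXCR4 (n = 3) and 943 FPKM in siNC (n = 2). Tyrobp, which encodes DAP12, the adaptor of the PILR-beta receptors, was at 316, 391 and 286 FPKM in siCXCR4, against 391 and 360 FPKM in siNC. Its groups overlapped because siCXCR4 replicate 2 was at the level of the higher siNC library. Syk averaged 177 FPKM in siCXCR4 and 178 FPKM in siNC.

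Of 16 kinases and phosphatases of ITIM signalling, 12 were above 0, with a median of 0.06, and 3 had an unadjusted p under 0.05 in the higher direction (5.8% of all genes). Ptpn6, which encodes SHP-1, was at 258, 242 and 253 FPKM in siCXCR4, against 233 and 230 FPKM in siNC. Lyn, a Src-family kinase that phosphorylates ITIMs, was at 167, 156 and 164 FPKM in siCXCR4, against 154 and 149 FPKM in siNC. Ptpn6 and Lyn were above siNC in each siCXCR4 library, and their adjusted p-values by limma were 0.549 and 0.599. They were among 7 of the 16 genes with that pattern, which 17.9% of all genes tested had. In 1 of the 16 all siCXCR4 values were below siNC (9.92% of all genes). The list was not tested as a set.

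Of 13 ligands of the receptors in the tables, 8 passed the filter, and their levels ranged widely. Of these 8, 5 were above 0 and 3 below, with a median of 0.04 and no gene at an unadjusted p under 0.05. B2m, the light chain of MHC class I, averaged 4701 FPKM in siCXCR4 and 4630 FPKM in siNC, and H2-D1, a class I heavy chain, 1887 FPKM in siCXCR4 and 1765 FPKM in siNC. Apoe, a lipid carrier bound by human LILRB4, was at 1964, 1712 and 1863 FPKM in siCXCR4, against 1666 and 1698 FPKM in siNC, with an adjusted p of 0.610 by limma. Of the PILR ligands, Pianp averaged 1.61 FPKM in siCXCR4 and 1.64 FPKM in siNC, and Npdc1 was below the filter. Among the ligands listed for the other receptors, Fn1, Itgb3, Angptl2 and Sftpd were also below it.

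Of 20 other inhibitory or related receptors in the tables, 15 passed the filter, with 10 above 0 and 5 below and a median of 0.06. At an unadjusted p under 0.05 by limma, 3 of the 15 were lower (3.54% of all genes) and 0 were higher (5.8% of all genes). Fcgr2b, the inhibitory receptor for immunoglobulin G, was at 102, 95.9 and 101 FPKM in siCXCR4, against 111 and 108 FPKM in siNC, with an adjusted p of 0.514 by limma. Ly9, a SLAM-family receptor whose tail carries switch motifs in place of the ITIM, averaged 164 FPKM in siCXCR4 and 158 FPKM in siNC. Cd72, an ITIM-bearing receptor best known on B cells, averaged 109 FPKM in siCXCR4 and 102 FPKM in siNC.

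**Figure D5:**
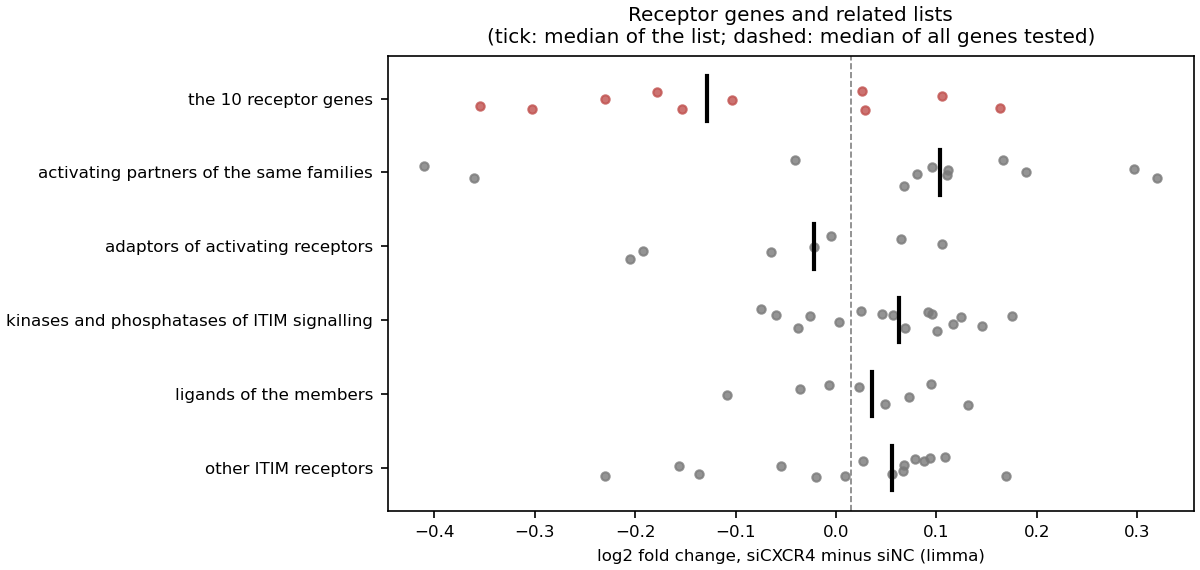
Log2 fold change, siCXCR4 minus siNC by limma, of the 10 receptor genes (red) and of the tested genes of 5 related lists (grey), 1 point per gene; black ticks are list medians and the dashed line is the median of all genes tested (0.015). The tick of the receptor genes is at -0.13 and those of the related lists lie between -0.02 and 0.10.

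Pilrb2 and Lst1 were set beside 5426 genes of at least 5 FPKM by the Pearson correlation of log2(FPKM + 1) over the 5 libraries, which share their group difference. For Pilrb2 the highest values belonged to Mefv (0.998), Pnp2 (0.993) and Commd3 (0.990), and 23 genes were above 0.95. Mefv encodes pyrin, an inflammasome sensor, and was at 104, 104 and 103 FPKM in siCXCR4, against 109 and 109 FPKM in siNC. For Lst1 they belonged to Pilrb1 (0.996), Isca2 (0.994) and Polr1c (0.994), and 43 genes were above 0.95. With 5 points in 2 groups these values describe a shared order of libraries only.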

How the data were processed

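Values were read from 1 table of 54532 genes per sample. For 5 samples the authors deposited normalized values with no unit in the file headers, read here as FPKM from the values (RPKM cannot be told apart). For siNC replicate 3 the authors deposited whole read counts, identical to the whole reads that the FPKM of siNC replicate 2 give, over all 19072 genes detected. The planned 3 against 3 samples therefore became 3 siCXCR4 against 2 siNC libraries. All values (100.0%) gave whole reads at a tolerance of 0.05. The labels name build mm9, per the submitters' processing notes, but 98.3% of shared genes had GRCm38 positions, used here. For aligner, counting tool and read length the sources used here give nothing. The deposited columns begin with wt and mko; group names follow the labels.

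The members and gene lists were chosen with earlier results of these data known. Of 102 symbols with several entries the one of highest mean was kept. Main test: limma 3.58.1 (R 4.3.3, trend and robust) on log2(FPKM + 1), mean of at least 1 FPKM, two-sided, Benjamini-Hochberg over all genes tested. Fold changes on this scale understate those of low genes. Whole reads were also tested with edgeR 4.0.16 (TMM, quasi-likelihood, robust) and DESeq2 1.42.0, an adjusted p that DESeq2 gives as NA being left out. The limma and edgeR fits were run on simulated data of fixed spread. Recovery was required only for planted changes larger than those of the members, so it does not measure power for theirs. Other alternatives were other scalings, filters, a pseudocount of 0.1, limma without trend or robust estimate, the copy counted separately, a replicate block and each library left out. Named genes were all members, the 3 of highest mean per list, the most abundant neighbours within 100 kb and the 3 closest patterns to Pilrb2 and Lst1; other list genes named were chosen after their values were seen, and 1 gene that the rule names is not reported here. Sequences are from RefSeq (GRCm38.p6 promoters) and GENCODE M21 transcripts, aligned globally with Biopython 1.88. The binomial intervals and the half-width given for Pilrb2 cover counting error only. Intervals of fold changes are those of the limma fit and rest on the spread between libraries. Without molecular identifiers, reads are not independent molecules.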

Additional observations from a re-analysis of the deposited data

How the results depend on the processing

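Of 210 recomputed fold changes of the 10 genes, 195 kept direction and side of the threshold. Pilra, Pilrb1, Pilrb2, Siglece and Lst1 were below 0 in 22 of 22 settings. Lst1 passed in 4 alternatives, by edgeR and DESeq2 and by edgeR without siNC replicate 2 (adjusted p 0.0296) or siCXCR4 replicate 2 (0.00109), and Pilrb2 in 1, by edgeR without siCXCR4 replicate 2 (0.05). Pirb turned to -0.002 with FPKM rescaled to reads in genes, -0.015 with the replicate block, and, without siNC replicate 1 or siCXCR4 replicate 3, to -0.037 and -0.015 by limma and -0.055 and -0.035 by edgeR, in a range up to 0.089. Without siNC replicate 2, Lilrb4a turned to 0.02 by limma and 0.006 by edgeR, and Sirpa to -0.015 and -0.03; the other ends of their ranges were -0.229 and 0.073 by limma, without siNC replicate 1. The ratio of Pilra to Pilrb2 was 0.196 or 0.103, and of Lilrb4a to Lilr4b -0.27 or -0.151, without siNC replicate 1 or 2. Genes called over the whole table numbered 0 by limma, 6 with the copy counted separately, 17 by edgeR, 28 by DESeq2 and 3 by edgeR without robust estimate, the last chosen after seeing the data. Leaving out 1 library gave 0 to 2 by limma and 0 to 312 by edgeR, with 312 without siCXCR4 replicate 2, 0 and 3 without siCXCR4 replicates 1 and 3, and 5 and 20 without siNC replicates 1 and 2. By chi-square per gene on reads, siCXCR4 replicate 2 differed from siNC replicates 1 and 2 by 4.2 and 5.45. It differed from siCXCR4 replicates 1 and 3 by 6.35 and 7.95. Between siCXCR4 replicates 1 and 3 the value was 4.16, and between the siNC libraries 4.84. From siCXCR4 replicates 1 and 3 to the siNC libraries it ran from 6.7 to 11.32. The cause of the varying numbers of calls was not tested. A replicate block gave 0 calls. In their deviations from group means, same-numbered libraries correlated at -0.04 and -0.11. With 2 siNC libraries these deviations mirror each other, so the values cannot tell whether same-numbered samples share a culture or batch. Pilrb2 had the fewest reads of the 10 genes, 343 to 515 per library, and so the largest relative counting error. What limits its precision most was not tested.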
